A study of Mus musculus with 16 samples.

Results

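The 9 genes described here encode RNA-binding proteins through which germ cells control translation: Dazl and Boll of the DAZ family, the Y-box proteins Ybx1, Ybx2 and Ybx3, and Cpeb1, Celf1, Elavl1 and Pum2, which act through elements in the untranslated regions of their targets. They were chosen by name, each symbol was matched to 1 Ensembl gene, and they are 9 of the 55414 genes in the deposited tables. The study measured total RNA of whole mouse testes by RNA sequencing at postnatal day 14 (P14) and postnatal day 16 (P16), when the first wave of spermatocytes moves through meiotic prophase. Every animal group received tamoxifen at 10 mg per ml on days 12 and 13. The question was what changes when YTHDC2, an RNA helicase that binds N6-methyladenosine, is lost from testes in which meiosis is under way.

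There were 3 genotype labels. Ythdc2 conditional knockout (cKO) libraries numbered 3 at each age, libraries labelled control numbered 2 at each age, and libraries labelled Cre control numbered 2 at P14 and 4 at P16. In the headers of the deposited data the control libraries are named WT and the Cre control libraries Ctrl. The labels describe the alleles of these groups no further. They name neither the promoter nor the cell type that drives the Cre recombinase. They also do not say whether a library came from 1 animal or several, so p-values measure the spread between these libraries. Ribosomal RNA was removed with 2 different kits. A Ribo-Zero kit, called the first kit below, was used for the control libraries and for cKO libraries 1 and 2 of each age. An NEBNext kit, called the second kit, served the Cre control libraries and cKO library 3 of each age. The comparison of cKO with control therefore stays within 1 kit, and the comparison with Cre control mixes both kits. The headers place all first-kit libraries in a sequencing run that holds no second-kit library. Kit and run therefore cannot be told apart wherever a difference is given by kit below.

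Germ cells of the male stop transcribing long before they stop differentiating, so spermatocytes and spermatids store messenger RNAs and translate them later. DAZL binds the 3′ ends of germ cell transcripts and promotes their translation, and BOLL, its meiotic relative, is required for spermatids to form properly. Y-box proteins coat messenger RNA and hold it in a stored form; YBX2, known as MSY2, and YBX3, known as MSY4, are abundant in spermatocytes and spermatids, and YBX1 is found in most proliferating cells. CPEB1 binds the cytoplasmic polyadenylation element and controls the length of the poly(A) tail, and PUM2 represses targets that carry a Pumilio element. CELF1 binds GU-rich and ELAVL1, known as HuR, binds AU-rich elements.

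To show what lies ahead of the 3 Y-box genes, which the age comparison turns on, and of Cpeb1, which the knockout comparison turns on, the 250 bases before their RefSeq starts are given here from build GRCm38.p6, 5′ to 3′ on the strand of the gene. Capitals mark CCAAT or its reverse complement ATTGG, the core of the Y-box element after which the Y-box proteins are named. The windows lie at chr4:119294514-119294763 (minus strand) for Ybx1, chr11:69935649-69935898 (plus strand, 1 of 2 RefSeq starts) for Ybx2, chr6:131388451-131388700 (minus strand) for Ybx3 and chr7:81454759-81455008 (minus strand) for Cpeb1.
Ybx1: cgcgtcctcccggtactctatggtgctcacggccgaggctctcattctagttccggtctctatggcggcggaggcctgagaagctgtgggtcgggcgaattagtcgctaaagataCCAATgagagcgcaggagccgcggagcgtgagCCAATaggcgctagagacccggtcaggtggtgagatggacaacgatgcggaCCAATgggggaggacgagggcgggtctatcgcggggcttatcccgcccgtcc
Ybx2: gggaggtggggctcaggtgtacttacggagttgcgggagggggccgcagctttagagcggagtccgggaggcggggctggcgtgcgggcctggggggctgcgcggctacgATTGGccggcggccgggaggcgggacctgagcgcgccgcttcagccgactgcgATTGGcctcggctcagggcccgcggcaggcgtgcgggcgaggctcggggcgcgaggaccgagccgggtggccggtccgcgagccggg
Ybx3: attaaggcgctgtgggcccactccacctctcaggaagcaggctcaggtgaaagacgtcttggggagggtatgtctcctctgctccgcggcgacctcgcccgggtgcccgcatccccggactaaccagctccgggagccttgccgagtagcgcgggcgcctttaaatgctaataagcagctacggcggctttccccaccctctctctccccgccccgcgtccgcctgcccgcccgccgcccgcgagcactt
Cpeb1: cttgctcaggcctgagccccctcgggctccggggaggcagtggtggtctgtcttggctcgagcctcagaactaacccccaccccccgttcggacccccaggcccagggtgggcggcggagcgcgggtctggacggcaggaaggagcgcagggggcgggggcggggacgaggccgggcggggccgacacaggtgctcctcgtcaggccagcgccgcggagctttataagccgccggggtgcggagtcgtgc

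The CCAAT core, searched on both strands, occurred 3 times in the Ybx1 window and 2 times in the Ybx2 window shown. The windows of Ybx3 and Cpeb1 had 0 matches. Of the other members, Elavl1 had 2 matches, Dazl had 1, and Boll had 1 in its second window. Among all 32851 promoter windows of this length, 33.8% held at least 1 match. The cAMP response element TGACGTCA was found in none of the members' windows and in 1.55% of all windows, and the E-box CACGTG was found in 1 Boll window and in 6.02% of all windows. These matches describe letters in the windows and say nothing about binding.

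The targeted gene matched the labels. In the first kit Ythdc2 stood at 2027 and 2262 normalised reads in the control and at 658.3 and 753.2 in the cKO libraries at P14, and at 2666 and 2609 against 501.7 and 540.6 at P16. Second-kit values were 322.8 in cKO library 3 against 1352 and 1454 in the Cre control at P14, and at 226.3 against 1392 to 2633 at P16. The normalised read counts are reads divided by a scaling factor of each library and can be compared between libraries of 1 table but not between tables. Between 14494867 and 27531529 reads per library fell on genes, and the least covered member, Cpeb1, had 686 to 1266 reads in a library.

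Measured per length of exon, the members spread over a wide range, as the plot of level per length shows. In the 8 first-kit libraries Dazl was the most abundant, with a median of 242 reads per kilobase of exon and per total mapped to genes (RPKM) and a range of 211 to 254. Ybx1 followed at 171 (135 to 194), Ybx2 at 89.4 (38.1 to 140) and Ybx3 at 61.2 (30.6 to 90.5). Below them were Boll at 36.7 (24.8 to 46.9), Pum2 at 31.9 (30.6 to 33.7), Celf1 at 26.6 (25.1 to 27.8), Elavl1 at 16.7 (14.9 to 17.7) and Cpeb1 at 10.1 (6.50 to 11.1). The ranges of Dazl and Ybx1 did not overlap, nor did those of Pum2 and Celf1, Celf1 and Elavl1, or Elavl1 and Cpeb1. Ybx2 overlapped Ybx1, Ybx3 and Boll, and Ybx3 and Boll overlapped each other and Pum2; Boll also overlapped Celf1. With the second kit Ybx1, at a median of 174, stood above Dazl, at 158, and their ranges overlapped. Cpeb1 was the lowest member in that kit as well, at 12.1.

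**Figure D1:**
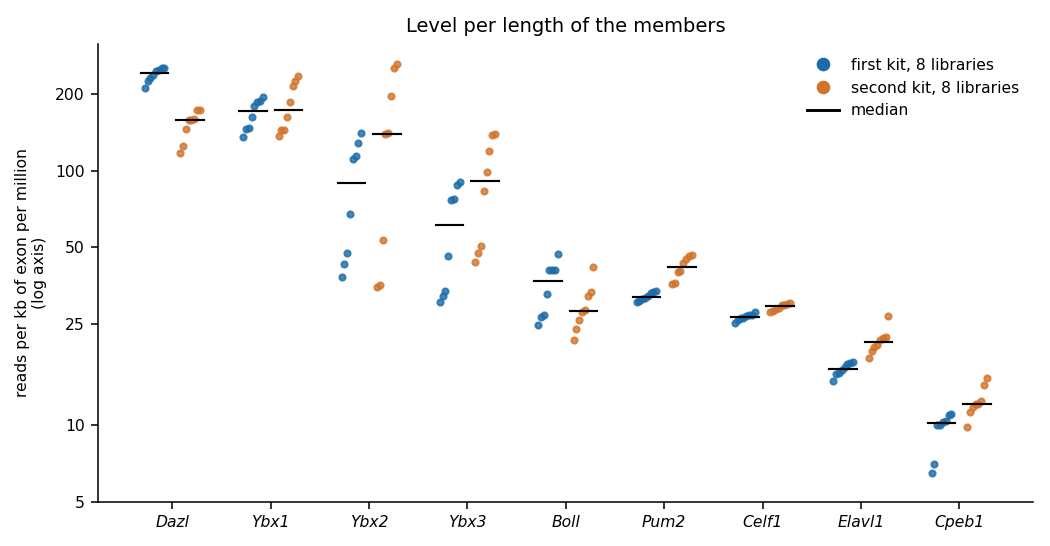
Level of each member per length, in RPKM on a log axis, in the 8 libraries of each ribosomal RNA removal kit. Each point is 1 library and each black line a median; Dazl leads in the first kit at 242 and Ybx1 in the second at 174, and Cpeb1 is lowest in both at 10.1 and 12.1.

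Between P14 and P16 the Y-box genes and Boll rose in both genotypes of the first kit. Levels at the 2 ages are given as CPM, which are reads scaled by the library total and a TMM normalisation factor, computed together over the libraries of 1 kit. Ybx2, the germ cell Y-box gene, stood at 80.8 and 88.6 CPM in the control libraries at P14 and at 211 and 214 CPM at P16, a ratio of means of 2.51. The cKO libraries stood at 72.7 and 125 CPM at P14 and at 243 and 266 CPM at P16, a ratio of 2.57. No P14 library of the first kit reached the level of any P16 library. The log2 change, from limma with adjustment over all genes tested, was 1.32 ± 0.19 (SE, adjusted p = 0.00105) in the control and 1.44 ± 0.19 (SE, adjusted p = 4.38e-04) in the cKO.

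Ybx3 followed the same course. It stood at 98.2 and 103 CPM at P14 and at 235 and 238 CPM at P16 in the control, and at 95.2 and 140 CPM at P14 and 270 and 280 CPM at P16 in the cKO. Its log2 change was 1.23 ± 0.13 (SE, adjusted p = 3.30e-04) in the control and 1.28 ± 0.13 (SE, adjusted p = 1.38e-04) in the cKO by limma. The libraries of the 2 ages were fully apart for Ybx3 in both genotypes.

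Ybx1 and Boll rose less. Ybx1 went from 365 and 370 CPM to 473 and 492 CPM in the control, a log2 change of 0.38 ± 0.07 (SE, adjusted p = 0.00304 by limma), and by 0.35 ± 0.07 (SE, adjusted p = 0.00337) in the cKO. Boll went from 93.5 and 94.7 CPM to 143 and 144 CPM in the control, a log2 change of 0.60 ± 0.10 (SE, adjusted p = 0.00318 by limma), and by 0.65 ± 0.10 (SE, adjusted p = 0.00133) in the cKO. For both genes every P16 library lay above every P14 library of the same genotype.

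In the control, then, 4 of 9 members passed the test between the ages, all of them higher at P16, where 20.0% of all 18581 genes tested passed in either direction. In the cKO 5 of 9 passed, against 29.8% of all genes: the same 4 were higher, and Cpeb1, the cytoplasmic polyadenylation factor, was lower. Dazl, Celf1, Elavl1 and Pum2 did not pass in either genotype; their ratios of P16 to P14 means lay between 0.929 and 1.09. Markers of pachytene and later spermatocytes rose over the same interval, 7 of 7 in the control (median log2 change 2.10) and 7 of 7 in the cKO (median 1.80); their part in the rise of the Y-box genes was not tested. In whole testis, more cells of a type and more RNA per cell cannot be told apart.

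The second kit gave the same direction for the Y-box genes. In the Cre control Ybx2 stood at 64.5 and 98.1 CPM at P14 and between 262 and 511 CPM in the 4 libraries at P16, a ratio of means of 5.05. Its log2 change was 2.28 ± 0.24 (SE, adjusted p = 8.61e-04 by limma), that of Ybx3 was 1.28 ± 0.18 (SE, adjusted p = 0.00174) and that of Ybx1 was 0.58 ± 0.10 (SE, adjusted p = 0.00505). These 3 of 9 members passed, against 11.8% of 18819 genes, and all 7 pachytene markers rose (median 2.79). Boll did not pass, with a log2 change of 0.40 ± 0.15 (SE, adjusted p = 0.130 by limma).

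Cre control libraries 2 to 4 at P16 carry another sequencing run in their headers than the remaining second-kit libraries, so most of this age comparison also compares runs. With Cre control library 1 as the only P16 library, from the run that holds both ages, the Boll change was 0.83 and the Ybx2 change 2.67. This fit sets 1 library against 2, and spread between libraries was measured only in the 2 Cre control libraries at P14. Without the first Cre control library at P14 the Ybx1 change lost its call (adjusted p = 0.0782 by limma). The single cKO library of the second kit went from 65.0 to 263 CPM for Ybx2 and from 130 to 302 CPM for Ybx3.

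**Figure D2:**
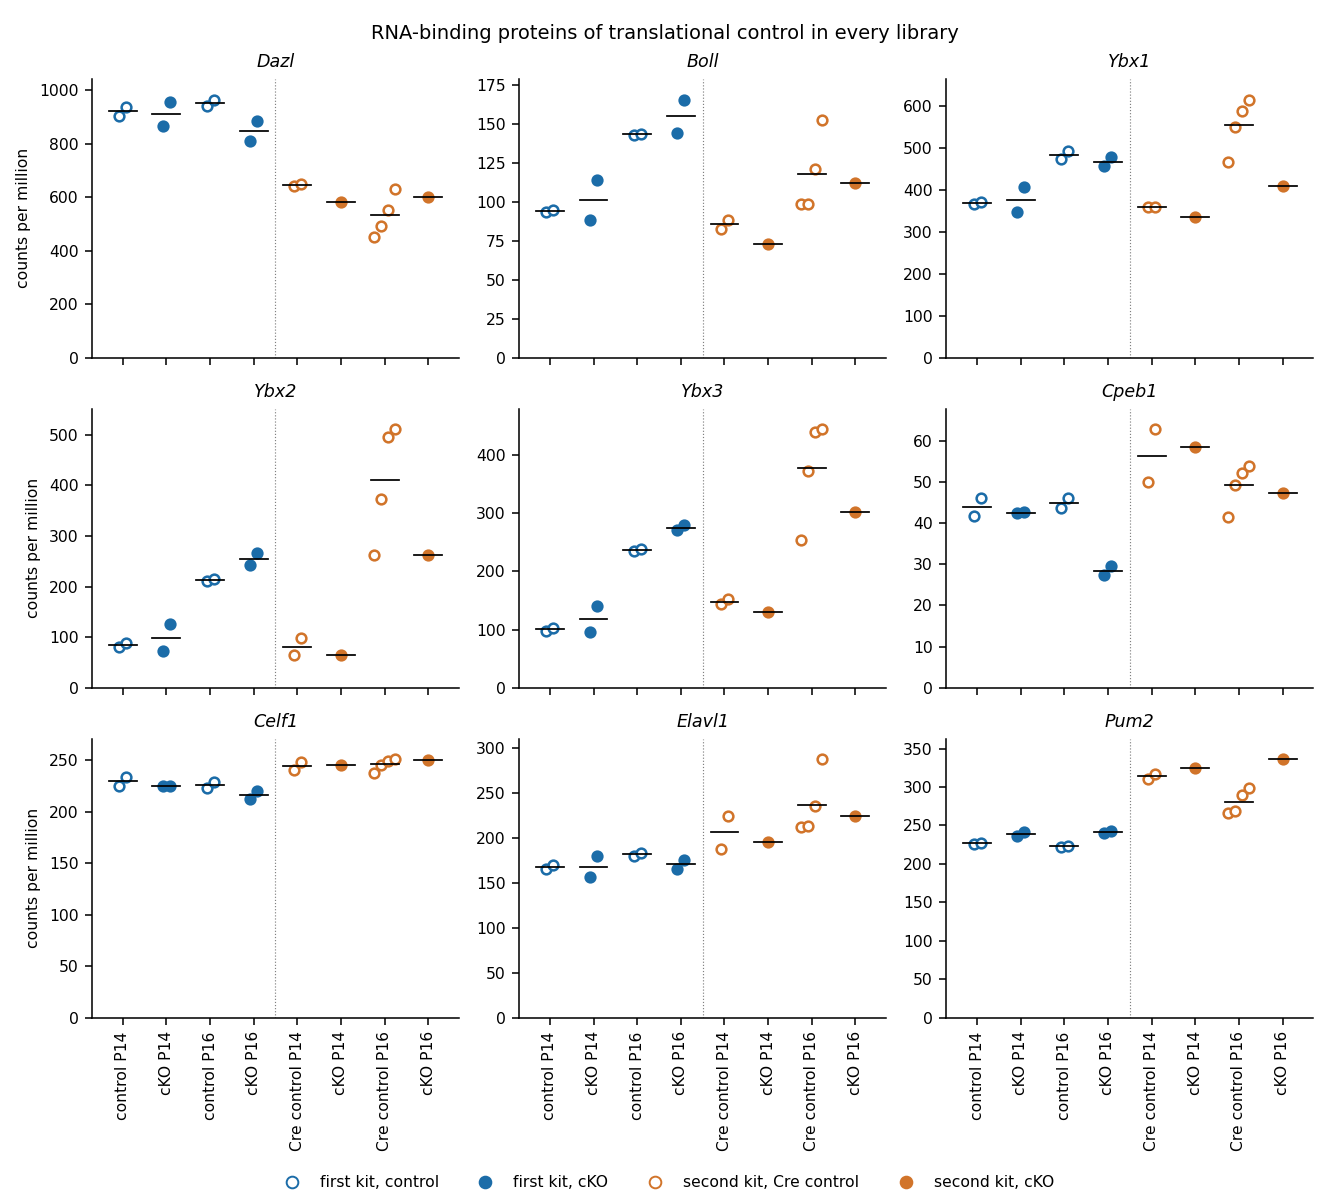
CPM (vertical axes, starting at 0) of the 9 members in each of the 16 libraries, by genotype and age; open points are control or Cre control, filled points cKO, blue the first kit, orange the second, and black lines means. Ybx2 and Ybx3 are higher at P16 than at P14 in every genotype, and Cpeb1 is lowest in the 2 first-kit cKO libraries at P16.

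Against the control at P16, Cpeb1 was lower in the cKO libraries of the first kit. Cpeb1 stood at 1128 and 1197 normalised reads in the control and at 769.5 and 710.5 in cKO libraries 1 and 2. Both cKO libraries lay below both control libraries, at a mean of 63.7% of control. The log2 change was -0.65 ± 0.07 (SE, n = 2 against 2, adjusted p = 1.24e-05 by limma), the largest among the 9 members. Over 15 alternative settings it lay between -0.71 and -0.38 and was called in 14 of them.

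At P14 no such difference was measured for Cpeb1. The control libraries stood at 1009 and 1118 and the cKO libraries at 1018 and 1012, with the cKO values inside the control range. The difference of the cKO effect between the ages was -0.57 ± 0.10 (SE, adjusted p = 0.0116 by limma, interaction term over the 8 first-kit libraries). Cpeb1 was the only one of 9 members to pass this test, against 7.39% of 18581 genes. The call was lost without the second P16 control library (adjusted p = 0.0676). Between the ages Cpeb1 was level in the control, at 41.7 and 46.1 CPM and then 43.6 and 46.0 CPM. In the cKO it went from 42.4 and 42.6 to 27.4 and 29.6 CPM, a log2 change of -0.55 ± 0.07 (SE, adjusted p = 4.02e-04 by limma).

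The cKO library of the second kit did not show the lower Cpeb1 level. It stood at 923.8 normalised reads, inside the range of the 4 Cre control libraries at P16 (1029, 814.5, 1022 and 978.3) and at 96.2% of their mean. In the same table the 2 first-kit cKO libraries stood at 630.3 and 585.7, below every second-kit library. When all P16 libraries were fitted together and the kit was included in the model, the Cpeb1 change was -0.38 (adjusted p = 0.0643 by limma). The lower Cpeb1 level at P16 was thus measured in both first-kit cKO libraries and not in the single second-kit one. At P14 the second-kit cKO library, at 1064, also lay between the Cre control libraries at 940.3 and 1146.

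The germ cell Y-box genes were slightly higher in the first-kit cKO at P16. Ybx2 stood at 5458 and 5577 normalised reads in the control and at 6320.3 and 6905 in the cKO, with no overlap, a log2 change of 0.26 ± 0.05 (SE, adjusted p = 9.90e-04 by limma). Ybx3 stood at 6095 and 6204 against 7041 and 7258, again with no overlap, a log2 change of 0.22 ± 0.04 (SE, adjusted p = 0.00115 by limma). Ybx1 did not pass: its control libraries stood at 12248 and 12786 and its cKO libraries at 11863 and 12411, which overlap.

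The second kit did not show these higher levels. Ybx2 stood at 5142 in cKO library 3, just below the lowest of the 4 Cre control libraries (9759, 7334, 9678 and 5213) and at 64.3% of their mean. Ybx1 stood at 8003, below the Cre control range of 9262 to 11748 and at 74.0% of the mean. Ybx3, at 5907, lay inside the Cre control range of 5040.4 to 8596. In that joint fit with a kit effect the Ybx2 change became -0.11 (adjusted p = 0.751 by limma) and the Ybx3 change 0.002 (adjusted p = 0.996). The higher Ybx2 and Ybx3 levels in the cKO were measured in the first kit alone. At P16 the first Cre control library shares its sequencing run with cKO library 3, and the other 3 come from another run. Against that first library alone Ybx2 was also lower in cKO library 3 (5142 against 9759), as were Ybx1 (8003 against 11748) and Ybx3 (5907 against 8488), and Cpeb1 was 923.8 against 1029.

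Dazl, the translational activator, was lower in the first-kit cKO at P16. Its control libraries stood at 25018 and 24503 normalised reads and its cKO libraries at 21098 and 22976, a mean of 89.0% of control with no overlap. The log2 change was -0.17 ± 0.05 (SE, adjusted p = 0.0102 by limma). The call was lost when either control library was left out (adjusted p = 0.132 without the first and 0.0720 without the second), under quantile scaling (adjusted p = 0.0614), and in the joint fit with a kit effect, where the change was -0.002 (adjusted p = 0.993). Second-kit cKO library 3 stood at 11762, inside the Cre control range of 8889 to 12055. Dazl differed more between kits, which also differ in sequencing run, than between genotypes. In that table the first-kit cKO libraries stood at 17281 and 18941, above every second-kit library of either genotype.

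Pum2, the Pumilio repressor, was higher in the first-kit cKO at P16, at 6260.2 and 6302 normalised reads against 5791 and 5773 in the control. The groups did not overlap, and the log2 change was 0.12 ± 0.04 (SE, adjusted p = 0.0314 by limma). This call too was lost without either control library (adjusted p = 0.187 and 0.199), with no filter (0.0611), by DESeq2 (0.0646), and in the joint fit with a kit effect, where the change was 0.19 (adjusted p = 0.0512 by limma). Pum2 stood at 6578 in cKO library 3 of the second kit, above the Cre control range of 5223 to 5761. Pum2 was the only one of the 5 called members for which the second-kit library lay outside the Cre control range on the side of the first-kit change.

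Boll, Celf1 and Elavl1 did not pass at P16, although their groups did not overlap. The share of all genes without overlap at P16 was not counted, for these genes or for the members above. Lack of overlap alone is therefore not read as a difference. Boll stood at 3718.0 and 3719 normalised reads in the control and at 3748 and 4298 in the cKO, a log2 change of 0.11 ± 0.06 (SE, adjusted p = 0.153 by limma). Celf1 stood at 5768 and 5946 against 5724 and 5521, a log2 change of -0.06 ± 0.04 (SE, adjusted p = 0.299). Elavl1 stood at 4660.4 and 4772 against 4309 and 4560.2, a log2 change of -0.09 ± 0.04 (SE, adjusted p = 0.137). Exons of Elavl1 overlap those of Ccl25 on the other strand, to which 2690 reads were assigned over all libraries against 65667 for Elavl1. For these 3 genes, cKO library 3 of the second kit lay inside the Cre control range.

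In all, 5 of 9 members passed between cKO and control at P16, 3 higher and 2 lower, where 38.6% of 17986 genes passed in either direction. The median log2 change of the 9 members was -0.04, beside -0.0005 over all genes. Marker genes moved in the same comparison. Of 7 spermatogonial markers 6 were lower in the cKO, with summed levels of 17756 to 17960 in the control and 13138 to 13481 in the cKO. Of 7 early meiotic markers 6 were lower (15210 to 15418 against 11135 to 11779), and of 7 pachytene and later markers 3 were higher and 1 lower (20953 to 21338 against 22652 to 24827). Sertoli cell markers were higher in 4 of 7 (13062 to 13617 against 15473 to 17607), as were macrophage markers in 3 of 4 (862.1 to 904.0 against 1220 to 1225), Leydig cell markers in 2 of 5 and peritubular and vessel markers in 2 of 4. No marker was at 0 in both groups. Insl3, a Leydig cell marker, was at 0 in the cKO libraries, but its control mean was only 0.47 normalised reads. It was also at 0 in every second-kit library at P16. The part of these cell types in the members' changes was not tested.

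**Figure D3:**
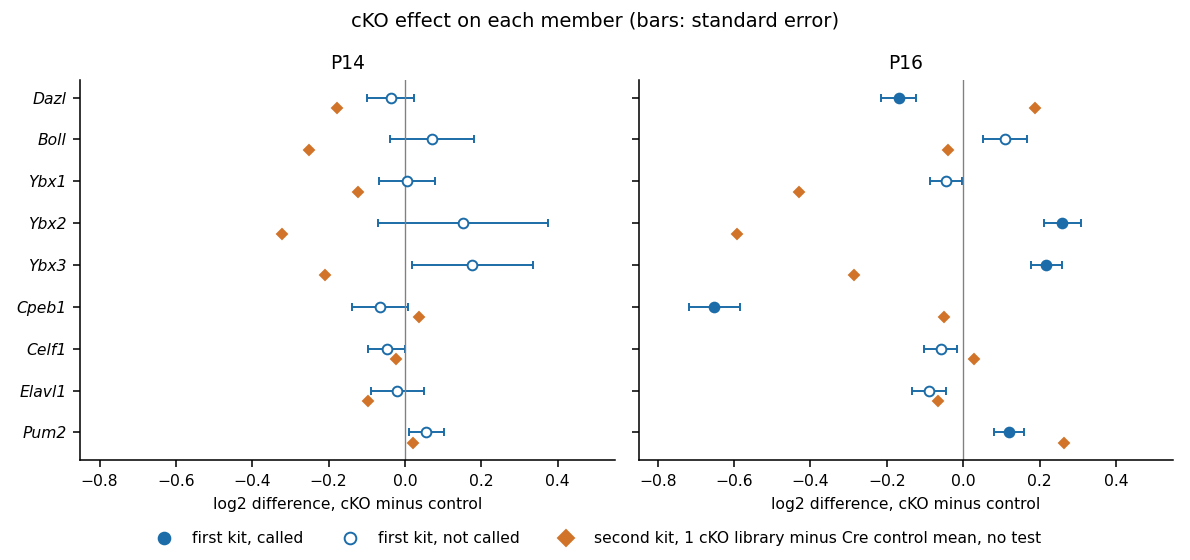
Log2 difference of each member between cKO and control at P14 (left) and P16 (right). Blue circles are the first-kit estimates with standard errors (2 against 2 libraries, filled where called), and orange diamonds are cKO library 3 of the second kit minus the mean of the Cre control libraries, with no test; Cpeb1 at P16 is the largest first-kit difference, at -0.65, beside -0.05 in the second kit.

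At P14 no member passed between cKO and control, where 0.00579% of 17270 genes passed, which is Ythdc2 alone. The cKO libraries of P14 differed from each other for the Y-box genes: Ybx2 stood at 1743 and 2976 normalised reads, on both sides of the control libraries at 1956 and 2150.0, and Ybx3 at 2284 and 3324 against 2377 and 2501. The summed level of the 7 pachytene markers differed in the same way, at 5847 and 9746 in the cKO and 6065 and 6674 in the control. The cKO library with the higher Ybx2 level was also the one with the higher marker sum. The difference of the cKO effect between the ages accordingly turned on these 2 libraries: for Ybx2 it was 0.12 (adjusted p = 0.807 by limma), -0.28 without cKO library 1 and 0.50 without cKO library 2, and for Ybx3 0.06 (adjusted p = 0.880), -0.24 and 0.31. Celf1, at 5664 and 5459 in the control against 5406 and 5352, and Pum2, at 5472 and 5522 against 5682 and 5744, had groups that did not overlap and were not called. The share of all genes without overlap was not counted at this age either.

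Against the Cre control no member passed at either age. At P16 9.07% of 19200 genes passed. An unadjusted p under 0.05 in limma was reached by 3 of 9 members and by 7364 of the 19200 genes. At P14 0% of 18196 genes passed, although 705 genes and 0 members had an unadjusted p under 0.05. Genotype and kit overlap in these comparisons, because 2 of the 3 cKO libraries at each age come from the other kit. Without cKO library 3, when kit and genotype cannot be told apart, 4 members were called at P16, where 9427 of 19046 genes were called, and 2 at P14, where 6256 of 17924 genes were. In the second kit alone, 7 of 9 members at P14 and 6 of 9 at P16 were lower in cKO library 3 than the Cre control mean. Their median log2 differences were -0.12 and -0.05, beside -0.0195 and -0.0277 over all genes tested, with no replicate of the cKO. The share of all genes that were lower was not counted.

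Other RNA-binding regulators of germ cells were compared at P16 in the first kit, from a list of 26 genes of which 25 were tested. Of these, 2 were higher and 8 lower in the cKO, with a median of -0.04, where 38.6% of all genes were called. The lower ones with the largest changes were Elavl2, a relative of Elavl1 (log2 change -1.15), Lin28a, a let-7 regulator of undifferentiated spermatogonia (-0.75), and the Pumilio partners Nanos3 (-0.72) and Nanos1 (-0.50). Elavl2 stood at 1030 to 1104 normalised reads in the control and 465.8 to 495.1 in the cKO, and Lin28a at 1250.1 to 1308 against 717.7 to 807.4. The higher ones were Khdrbs3 (0.30) and Msi2, a Musashi protein (0.16). Elavl2 and Lin28a of second-kit cKO library 3 lay inside the Cre control range, at 89.3% and 94.4% of its mean, Nanos3 lay below the range and Nanos1 above it. Khdrbs3 went the other way there, at 1357 below the Cre control range of 1416 to 2140.0, and Msi2 lay inside its range.

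The difference of the cKO effect between the ages passed for 4 of 26 of these regulators, all more negative at P16: Elavl2 (-0.95, adjusted p = 0.00116 by limma), Lin28a (-0.55, adjusted p = 0.0116), Nanos1 (-0.55, adjusted p = 0.0233) and Fmr1 (-0.38, adjusted p = 0.0176). Over all genes 7.39% of 18581 passed, and of these 1373 genes 834 were more negative at P16. The Cpeb1 difference given above was -0.57. The spermatogonial markers were also lower at P16 in the first-kit cKO, as given above, whereas in the second kit 2 of 7 were lower in cKO library 3 (median log2 difference 0.07), and their part in these differences was not tested.

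Of 19 matched genes for factors that act on the cap or the poly(A) tail, all tested, 4 were higher and 5 lower in the cKO at P16, with a median of -0.05, where 38.6% of all genes were called. The higher ones were Papolb, the testis poly(A) polymerase (0.52), Paip1, which bridges the poly(A)-binding protein and the initiation complex (0.23), Eif4g2 (0.17) and the cap-binding factor Eif4e (0.13). The lower ones named here were Paip2b, an inhibitor of the poly(A)-binding protein (-0.58), Pabpc6 (-0.42), Eif4enif1, the eIF4E transporter (-0.37), and Eif4e2, a repressive cap-binding protein (-0.23). For each of these 8 genes, the single cKO library of the second kit differed from the Cre control mean in the same direction. The share of all called genes that kept their direction there was not counted. Paip2b lay below the Cre control range at 80.8% of its mean, Eif4enif1 at 88.1% and Eif4e2 at 85.3%, while Paip1, Eif4g2 and Eif4e lay above it at 111%, 108% and 107%. Papolb, at 772.9, and Pabpc6, at 737.2, lay inside their Cre control ranges of 434.7 to 958.5 and 467.8 to 1437.

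**Figure D4:**
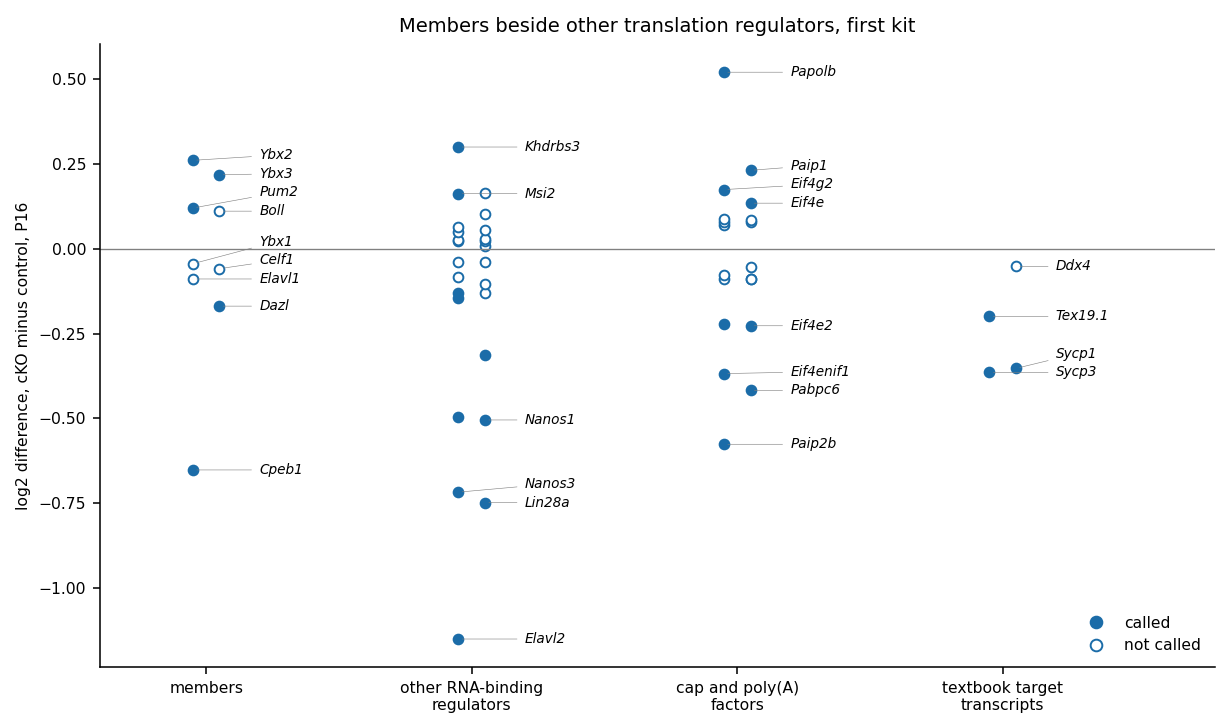
Log2 difference between cKO and control at P16 in the first kit (vertical axis) for the 9 members, 25 other RNA-binding regulators, 19 cap and poly(A) factors and 4 textbook target transcripts; filled points are called at an adjusted p under 0.05. Cpeb1 at -0.65 is the lowest member, and Elavl2 at -1.15 is the lowest gene shown.

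Transcripts that textbooks give as targets of these proteins were examined too. Sycp3 and Sycp1, synaptonemal complex genes known as CPEB1 targets, the former also as a DAZL target, were lower in the first-kit cKO at P16, with log2 changes of -0.36 ± 0.05 (SE, adjusted p = 7.63e-05 by limma) and -0.35 ± 0.05 (SE, adjusted p = 1.38e-04). Tex19.1 was lower by -0.20 ± 0.05 (SE, adjusted p = 0.00857 by limma), and Ddx4, the germ cell helicase MVH, did not pass (-0.05, adjusted p = 0.515). In the second kit 3 of these 4 were lower in cKO library 3 at P16, with a median log2 difference of -0.31 over the 4. They were Sycp3 (-0.35), Sycp1 (-0.28) and Ddx4 (-0.48), the last of which had not passed in the first kit. Tex19.1, called lower in the first kit, was not lower there (0.015) and lay inside the Cre control range. Prm2, a protamine gene whose stored transcript is a classical ligand of YBX2, was listed at 0 in every library, and Prm1 had a single read in 1 first-kit cKO library at P16, so at these ages the classical spermatid ligands were at or near 0. The tables measure RNA levels, and the translation of these transcripts was not measured.

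Among the members, Ybx2 and Ybx3 had the most alike patterns. Over the 8 first-kit libraries their log2 CPM had a Pearson r of 0.997, and over the 8 second-kit libraries 0.988; the libraries fall into 2 ages that set most of both values. Among 12278 genes with enough reads, the genes most like Ybx2 were Gtf2a1l, a germ cell subunit of TFIIA, and Pfn4 (r of 0.999 each, 0.992 and 0.976 in the second kit), and those most like Ybx3 were 1700074P13Rik and Tdrd6 (r of 1.00 and 0.999, 0.937 and 0.980). Boll was most like 4933416C03Rik and Gsto2 (0.999 and 0.996, 0.948 and 0.883 in the second kit), and Ybx1 most like Ruvbl2 and Zmynd10 (0.998 and 0.997, 0.983 and 0.955). Cpeb1 was most like Rassf10 and Zfp786 (0.996 and 0.994, 0.504 and 0.882 in the second kit), and Dazl most like Parp12 and Cnot11 (0.975 and 0.972, -0.16 and -0.08). Celf1 was most like Rmdn1 and Hspb11 (0.983 and 0.966, 0.510 and 0.241), Elavl1 most like 4933406P04Rik and Fignl1 (0.983 and 0.976, 0.808 and 0.978), and Pum2 most like Chchd3 and Klhl9 (0.976 and 0.971, -0.11 and 0.483).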

How the data were processed

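Whole testes of 16 libraries were sequenced after ribosomal RNA removal. The authors deposited a signal, in which each gene's reads are divided by 1 size factor per library; per the submitters' processing notes, Trim Galore, STAR, HTSeq and DESeq2 were used with GRCm39, and versions and strand setting are not given in the sources used here. Read counts were recovered from the steps of the deposited values: 100% of them came out whole, within 0.1 read, in all 20 columns. The 4 summary rows per table, 53.4% to 63.0% of all reads, were left out. cKO libraries 1 and 2 appear in 2 tables. Symbols came from a list of gene names, with GENCODE M21 for genes missing from it, and 52081 of 55414 genes had one. Of the listed symbols 1 was not matched. Exon lengths came from GENCODE M21, and promoters from RefSeq, with all 9 members matched.

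cKO was compared within each table by limma 3.58.1 (R 4.3.3) on log2(value + 1) with an intensity trend, keeping genes that reached 10 in 2 or more libraries. A log2 change on this scale understates the change of low genes. The ages and the interaction were tested likewise on log2 CPM (TMM, prior count 1) from the recovered counts. Calls are at a Benjamini-Hochberg adjusted p under 0.05 over all genes. edgeR 4.0.16 and DESeq2 1.42.0 on recovered counts were alternatives. Scripts were tested on simulated data. The members and lists were chosen with earlier results of these data known. The text names all members, the targeted gene, up to 4 of the largest called changes in each direction from each list at P16, all listed target transcripts, and the 2 genes most like each member; Fmr1 was added after its value was seen.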

Additional observations from a re-analysis of the deposited data

Results flagged for a closer look

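Cpeb1 was flagged because the effect of the knockout differed between the ages by the interaction test: the difference was -0.57 on the log2 scale (adjusted p = 0.0116 by limma), with the cKO lower than the control in 2 of 2 libraries at P16 and inside the control range at P14. It comes from the first kit only; in the second kit cKO library 3 lay inside the Cre control range at both ages.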

How the results depend on the processing

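Of the 25 log2 changes tracked over the alternatives, 1 changed sign under a setting that kept all libraries of its fit: Ybx2 at P16 against the control became -0.11 with all libraries of the age and the kit as a term. The number of members called at P16 against the control, 5, was 0 in that fit, 1 without the intensity trend (Cpeb1), and 3 to 6 when 1 library was left out. Against the Cre control it was 0 at P16, 2 by DESeq2 (Dazl and Ybx2) and 0 to 4 with 1 library left out (4 without cKO library 3), and 0 at P14, 3 with the replicate block and 0 to 2 with 1 library left out. In that block cKO library 3 stands alone, so the block leaves it out. For the interaction the count, 1, was 0 without the trend (Cpeb1 adjusted p = 0.0863 by limma) and 0 to 3 with 1 library left out: the Ybx2 difference ranged from -0.28 to 0.50 and the Ybx3 difference from -0.24 to 0.31, each at its extremes without cKO library 1 or 2 of P14. Whether replicate numbers pair the samples could not be settled. Same-numbered deviations correlated at 0.203 at P14 and 0.0798 at P16, from 2 pairs each. For numbers 1, 2 and 3 of the Cre control and cKO at P16 the correlations were 0.304, -0.07 and 0.225, where the cKO deviations also hold the difference between kits. The replicate block otherwise left the member counts within 1.5 times. Over all 72 changes of members, 31 changed sign under some setting. Of those, 1 was called in its main fit, the Ybx2 change at P16 against the control named above. The Ybx2 and Ybx3 interaction differences, not called in the main fit, were also among the 31.

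Counts over all genes varied more: 1806 to 8200 around 6939 at P16 against the control, 0 to 9427 around 1741 at P16 and 0 to 6966 around 0 at P14 against the Cre control, 135 to 3199 around 1373 for the interaction, 0 to 11 around 1 at P14, and for age 1640 to 4737 around 3714 in the control, 3445 to 6156 around 5533 in the cKO and 551 to 2777 around 2223 in the Cre control. Quantile scaling moved the median log2 change of all genes against the Cre control from -0.04 to 0.10 at P16 and from -0.0089 to 0.10 at P14. Small changes at P16 against the control moved across the threshold: Boll was called in 2 and Elavl1 in 1 of 15 settings, and Pum2 in 9.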
